A study of Mus musculus with 6 samples.

Results

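AA467197, Ndufa4 and Ndufa4l2 encode a family of small mitochondrial proteins, and their transcripts were followed in C2C12 cells, a mouse myoblast line, with and without siRNA against Cnn3 (calponin 3, an actin-binding protein). The genes were taken by name from the transcript table, and AA467197 was chosen by its FPKM in these same libraries, where it was already known to differ between the groups, so its levels and differences are given as a description without a test. Of the 3 named genes, 2 were listed, AA467197 with 2 transcripts and Ndufa4 with 3, among 24023 transcripts and 11835 genes in all. The level of Ndufa4l2 was not analysed here. Transcript levels were measured by mRNA-seq in 3 C2C12 cultures transfected with NC siRNA (siNC) and in 3 transfected with CNN3 siRNA (siCNN3). Both groups had been moved to medium with horse serum for differentiation, and they are labelled as mouse myotubes. The cells are of 1 established line for which the labels name no other allele or agent, and nothing says more of how the cultures of a group were separated, so the spread may be technical. Levels are FPKM, fragments scaled by transcript length and by the mapped total, summed over the listed transcripts of a gene.

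NDUFA4 was long counted as a subunit of respiratory complex I and is now placed in complex IV, cytochrome c oxidase, the enzyme that passes electrons to oxygen at the end of the respiratory chain. NDUFA4L2 is a paralog induced by the hypoxia factor HIF1. AA467197, also named Nmes1 (C15orf48 or MOCCI in human), encodes another paralog that is known to be induced by inflammatory stimuli and to take the place of NDUFA4 in complex IV. Its transcript is also the host of the microRNA miR-147, for which NDUFA4 is a known target.

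AA467197 lies on chromosome 2 of GRCm38 at chr2:122636986-122641191 on the plus strand, Ndufa4 at chr6:11900292-11907497 on the minus strand and Ndufa4l2 at chr10:127514967-127517154 on the plus strand. Their coding sequences have 252, 249 and 264 nucleotides with the stop codon, each in 4 coding exons, with a stretch of 61 nucleotides as exon 3 of the coding part in every gene. In a base alignment, AA467197 and Ndufa4 were identical at 130 of 237 aligned bases (54.9%), AA467197 and Ndufa4l2 at 56.4% and Ndufa4 and Ndufa4l2 at 68.6%. The coding sequences of the measured genes, from the 4-exon transcript of AA467197 and the 610-nucleotide transcript of Ndufa4 in GENCODE, are shown because they tell how far reads of one gene can be told from those of the other, with bases identical in the alignment in capitals.
AA467197: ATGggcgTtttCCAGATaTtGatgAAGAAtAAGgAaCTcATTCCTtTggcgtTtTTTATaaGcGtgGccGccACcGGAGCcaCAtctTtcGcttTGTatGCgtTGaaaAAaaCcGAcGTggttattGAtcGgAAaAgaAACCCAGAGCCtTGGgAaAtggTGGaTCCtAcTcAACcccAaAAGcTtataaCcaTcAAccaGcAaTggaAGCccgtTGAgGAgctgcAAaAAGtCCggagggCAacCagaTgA
Ndufa4: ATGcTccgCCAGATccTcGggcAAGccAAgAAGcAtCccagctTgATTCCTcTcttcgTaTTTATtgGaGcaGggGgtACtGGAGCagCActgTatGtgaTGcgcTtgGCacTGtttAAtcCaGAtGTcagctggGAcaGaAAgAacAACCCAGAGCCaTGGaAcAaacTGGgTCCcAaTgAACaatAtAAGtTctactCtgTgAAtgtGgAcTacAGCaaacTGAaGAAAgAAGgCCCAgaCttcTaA
The longest run found in all 3 coding sequences, AACCCAGAGCC, has 11 bases and starts at base 139 of AA467197, base 148 of Ndufa4 and base 163 of Ndufa4l2. No other annotated gene shared a run of 50 bases or more with the 610-nucleotide Ndufa4 transcript, and only the Mir147 hairpin did with either listed AA467197 transcript.

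AA467197 was low in siNC and 12.1-fold higher in siCNN3, whereas Ndufa4 stood at nearly the same high level in both groups. The siNC cultures (replicates 1 to 3) had 2.16, 1.63 and 1.51 FPKM of AA467197, and the siCNN3 cultures, in the same order, had 21.5, 23.2 and 19.6 FPKM. The groups did not overlap, and the lowest siCNN3 library was 9.07-fold above the highest siNC library. Group means were 1.77 ± 0.347 FPKM for siNC and 21.4 ± 1.77 FPKM for siCNN3 (SD, n = 3 each). As a difference of mean log2(FPKM + 1) this was 3.02 with a standard error of 0.153, a scale on which low genes change by less than their fold. Ordered from the most positive difference, AA467197 was number 60 of the 11593 genes whose mean reached 0.5 FPKM. Among all those genes, the 3 siCNN3 values were all above the 3 siNC values for 13.8% and all below for 9.35%. In siNC, 13.7% of the genes had a lower mean level than AA467197, and in siCNN3 73.0% had.

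For Ndufa4 the siNC cultures had 77.4, 110.4 and 103.9 FPKM, and the siCNN3 cultures had 111.1, 100.4 and 75.9 FPKM, again in replicate order. The groups overlapped throughout, with the lowest values in siNC replicate 1 and siCNN3 replicate 3. Group means were 97.2 ± 17.5 FPKM for siNC and 95.8 ± 18.02 FPKM for siCNN3 (SD, n = 3 each). The log2 difference was -0.02 with a standard error of 0.193, and it lay on either side of 0 when single libraries were left out, between -0.18 and 0.13. Ndufa4 was among the more abundant transcripts, with 95.5% of genes at a lower mean level in siNC and 94.8% in siCNN3. Since this is RNA from whole cultures, more cells with a transcript and more of it per cell cannot be told apart for any of these values.

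The balance of the paralogs differed between the groups with AA467197. Of the FPKM summed over both genes, AA467197 made up 2.72, 1.46 and 1.43% in the siNC cultures, compared with 16.2, 18.8 and 20.5% in the siCNN3 cultures. The mean share was 1.87 ± 0.735% for siNC and 18.5 ± 2.17% for siCNN3 (SD, n = 3 each). Ndufa4 was nevertheless the more abundant transcript in every library. Its level per length was 35.8, 67.6 and 68.8 times that of AA467197 in the siNC libraries and 5.17, 4.33 and 3.87 times in the siCNN3 libraries. Both genes together came to 79.6, 112.0 and 105.4 FPKM in the siNC cultures, which overlapped with 132.6, 123.5 and 95.6 FPKM in the siCNN3 cultures.

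**Figure D1:**
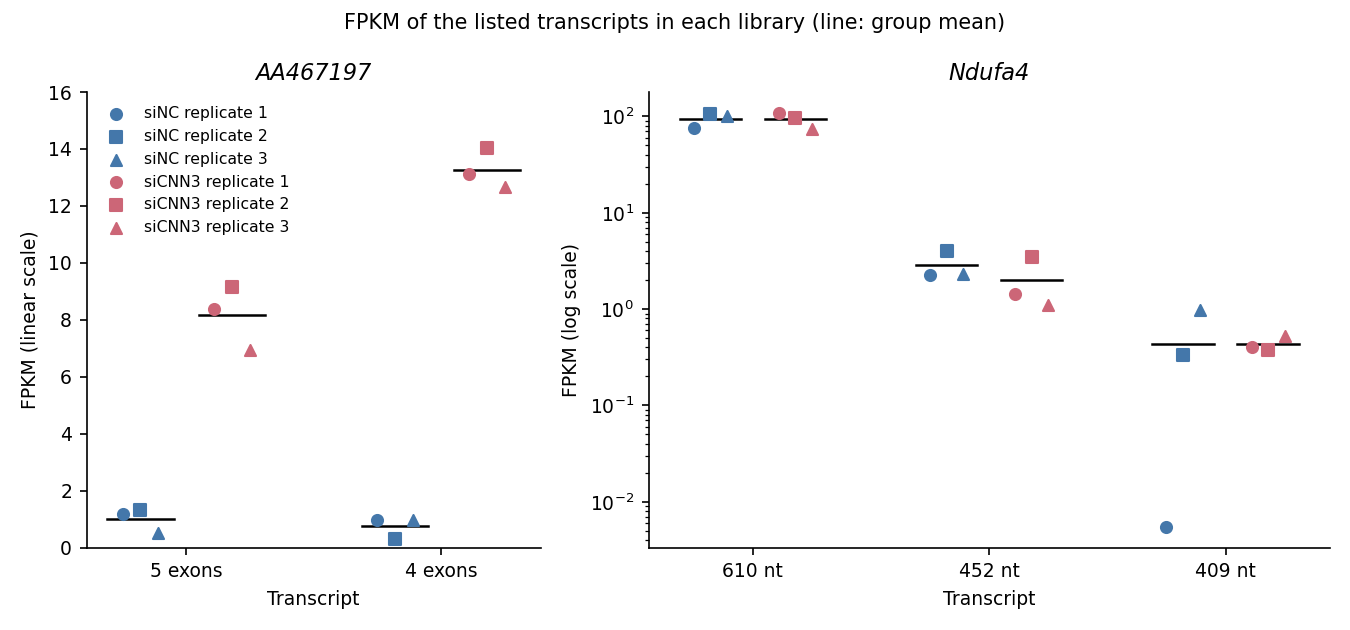
FPKM of each listed transcript of AA467197 (left, linear axis) and Ndufa4 (right, log axis) in the 6 libraries, with a line at the mean of the 3 libraries of a group. For both AA467197 transcripts every siCNN3 point lies above every siNC point, and for the 610-nucleotide main transcript of Ndufa4 the points of the groups overlap around 93.9 and 93.4 FPKM.

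The listed AA467197 transcripts differ in their first exon and in their end. The 5-exon transcript has 792 nucleotides and begins at base 122637850 of chromosome 2, while the 4-exon transcript has 751 nucleotides and begins 65 bases downstream. The first exon of the 4-exon transcript runs through the 130-base first intron of the 5-exon transcript, and its last exon ends 106 bases earlier. Both carry the same 252-nucleotide coding sequence, so the difference between them lies in the untranslated regions. The 5-exon transcript had 1.18, 1.34 and 0.538 FPKM in the siNC cultures and 8.38, 9.15 and 6.96 FPKM in the siCNN3 cultures. The 4-exon transcript had 0.981, 0.293 and 0.973 FPKM in the siNC cultures and 13.1, 14.02 and 12.7 FPKM in the siCNN3 cultures. Both were higher in every siCNN3 library than in every siNC library, by 8.004-fold for the 5-exon and 17.7-fold for the 4-exon transcript between the group means.

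The isoforms took unequal parts of the gene. The 4-exon transcript made up 62.0 ± 2.19% (SD, n = 3) of AA467197 in siCNN3, with 60.5 to 64.5% in single libraries, and was the larger part in each of them. In siNC it made up 42.6 ± 23.4% (SD, n = 3) and ranged from 17.95 to 64.4%, a range that reaches the siCNN3 values. The isoform share of the groups therefore overlapped. These transcripts share most of their bases and were low in siNC, and the number of reads behind each estimate is unknown.

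**Figure D2:**
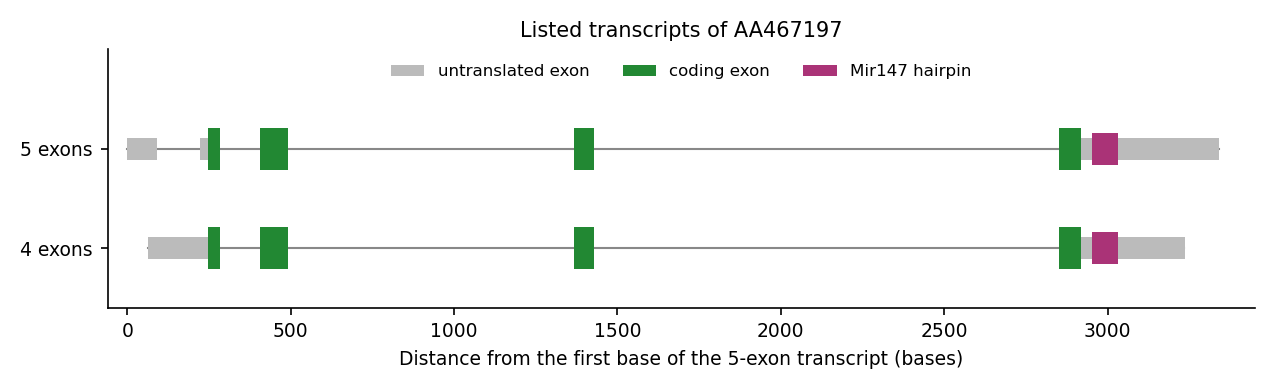
Exons of the listed AA467197 transcripts drawn to scale by distance in bases from the first base of the 5-exon transcript, with coding exons tall and green, untranslated exons grey and the Mir147 hairpin purple. The coding exons are at the same places in both transcripts, and the 79-base hairpin lies in the last exon of each, 33 bases after the stop codon.

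Ndufa4 was made up almost wholly of a transcript of 610 nucleotides, with 75.1, 106.1 and 100.6 FPKM in the siNC cultures and 109.3, 96.5 and 74.3 FPKM in the siCNN3 cultures. It held 96.7 ± 0.491% (SD, n = 3) of the gene in siNC and 97.5 ± 1.13% (SD, n = 3) in siCNN3. A transcript of 452 nucleotides with the same length of coding sequence had means of 2.86 ± 0.959 FPKM for siNC and 1.99 ± 1.27 FPKM for siCNN3 (SD, n = 3 each). A transcript of 409 nucleotides, whose annotated coding sequence has 150 nucleotides, had a mean of 0.438 FPKM in both groups. The minor transcripts did not separate the groups.

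The Mir147 hairpin lies at chr2:122640803-122640881 within the 3′ UTR of both listed AA467197 transcripts, so reads from it are part of the host's values, and mature miRNA was not measured by this mRNA sequencing. The RefSeq table for GRCm38.p6 gives miR-147-5p, the mature strand from the front arm, at chr2:122640814-122640837, and it is shown with its seed (bases 2 to 8) in capitals because the seed is what pairs with a target.
mmu-miR-147-5p: uGGAAACAuuucugcacaaacuag
The 3′ UTR of the 610-nucleotide Ndufa4 transcript has 243 nucleotides and 0 matches to the reverse complement of this seed. The other mature strand, miR-147-3p, was not analysed here. The longest stretches of the hairpin whose reverse complement occurs in that 3′ UTR have 8 bases, and there are 2 of them. They are shown in capitals in the hairpin and in the 30 bases around them in Ndufa4, at chr6:11900460-11900489 on the minus strand.
Mir147 hairpin: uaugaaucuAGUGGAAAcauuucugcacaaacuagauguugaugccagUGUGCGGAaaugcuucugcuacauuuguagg
Ndufa4 3′ UTR: aagccaTCCGCACAatTTTCCACTtaagca
Hairpin bases 10 to 17, AGUGGAAA, pair with TTTCCACT at UTR bases 62 to 69, and hairpin bases 49 to 56, UGUGCGGA, pair with TCCGCACA at UTR bases 52 to 59. The latter stretch lies in the back arm of the hairpin. Both stretches also occur in the other listed Ndufa4 transcripts. A match is a description of the letters and not evidence of binding.

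The other genes with these letters were counted beside all genes tested. Of the 11494 tested genes with an annotated 3′ UTR, 4.78% held TTTCCACT in their longest one. Of these 549 genes, 10 were called higher and 3 lower in siCNN3 at an adjusted p below 0.05 from limma, against 1.73% higher and 0.336% lower among all genes tested, and their median log2 difference was -0.01. TCCGCACA was held by 68 genes (0.592%), of which 0 were called by limma, 3 were higher and 4 lower at an unadjusted p below 0.05, and the median was -0.07. At that unadjusted threshold 9.94% of all genes tested were higher and 6.14% lower. The seed match of miR-147-5p was held by 2305 genes (20.1%), with 28 called higher, 6 called lower and a median of 0.01. The median of all genes with a 3′ UTR was 0.03. On the same log2 scale the host AA467197 was at 3.02, and Ndufa4, which holds both stretches, was at -0.02. Neither mature miRNA nor protein was measured, so an effect of miR-147 on Ndufa4 was not tested.

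The start of AA467197 was searched for letters that bind inflammatory and hypoxia factors, on both strands of a window of 250 bases before to 50 bases after the start (RefSeq, GRCm38.p6, chr2:122637637-122637936). The stretch before the first base of the 5-exon transcript, chr2:122637755-122637849 on the plus strand, is shown because it holds the matches that were found, in capitals.
AA467197 promoter: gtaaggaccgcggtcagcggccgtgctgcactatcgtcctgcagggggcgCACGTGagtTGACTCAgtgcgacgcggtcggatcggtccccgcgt
It holds CACGTG from 82 bases before the RefSeq start site and the AP-1 site TGACTCA from 73 bases before the same start. CACGTG reads the same on both strands, so it contains the hypoxia response core ACGTG on each, as overlapping matches and not as separate sites. ACGTG occurs in 19.6% and TGACTCA in 5.202% of 32851 promoter windows of the same length, and TGACTCA was added after the sequence was seen. The window held 0 matches to the core of the interferon-stimulated response element, GAAA and GAAA with 2 bases between them (3.44% of promoters), to the gamma-activated site TTCNNNGAA (8.30%) or to the NF-kB consensus (4.51%). The Ndufa4 window held none of these letters, and that of Ndufa4l2 was not analysed here. Absent letters say only that they are not in this window.

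The siRNAs themselves were compared with the listed transcripts. Of the NC siRNA and 3 CNN3 siRNAs designed for the study, 1 had a match to bases 2 to 8 of its antisense strand in the 5 listed transcripts of AA467197 and Ndufa4. This was CNN3 siRNA2, whose match GGCGTTA occurs once in the 5′ UTR of the 5-exon transcript of AA467197. The 4-exon transcript held no match, and which CNN3 siRNA the sequenced cultures received is not given in the sources used here.

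Complex IV, the enzyme that the paralogs belong to, was followed through its other subunits. Of 13 listed nuclear subunits, Cox6a2 reached the minimum of 0.5 FPKM only through its siCNN3 values and is described without a test. None of the other 12 was called by limma with Benjamini-Hochberg adjustment over all genes, of which 1.73% were called higher and 0.336% lower, and their smallest adjusted p was 0.309 (Cox5a). At an unadjusted p below 0.05, 1 of the 12 was higher (Cox5a) and 0 lower, against 9.94% and 6.14% of all genes. The median log2 difference of the 12 was -0.10, compared with 0.03 for all genes tested. The 3 siCNN3 values were all above the siNC values for 1 of them and all below for 3, against 13.8% and 9.35% of all genes. The 13 subunits summed to between 1684 and 1785 FPKM in siNC and between 1651 and 1687 FPKM in siCNN3. For scale, AA467197 at 21.4 FPKM in siCNN3 was below every one of these subunits apart from Cox6a2 and Cox7a1, in group means.

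Several complex IV subunits come as tissue isoforms, like the paralogs. Cox6a2, the heart and skeletal muscle form, was listed at 0, 0 and 0.113 FPKM in the siNC cultures, compared with 2.34, 1.71 and 0.422 FPKM in the siCNN3 cultures, with a log2 difference of 1.18. Its ubiquitous partner Cox6a1 was at -0.18. Cox7a1, the muscle form of another subunit, was at -0.77 with overlapping groups, and Cox7a2 at -0.17. Cox4i1 and Cox8a, the common forms of theirs, were at -0.19 and -0.12, and Cox4i2 and Cox8b were not analysed here. Leaving Cox6a2 aside, none of these forms was called.

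The 3 subunits that the mitochondrial genome encodes, the catalytic core of the enzyme, were each lower in every siCNN3 library than in every siNC library, as were 9.35% of all genes, without passing the threshold. The log2 difference was -0.38 for mt-Co1, -0.42 for mt-Co2 and -0.39 for mt-Co3, with adjusted p between 0.0704 and 0.129 from limma, and all 3 had an unadjusted p below 0.05, against 6.14% of all genes for lower values. Their summed FPKM lay between 7604 and 8211 in siNC and between 5927 and 6169 in siCNN3. Their median difference was -0.39, and it was -0.42 after median-of-ratios scaling. After quantile normalization it was -0.06, where that of all genes was -0.05.

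Of 26 complex IV assembly factors, 1 was called higher and 0 lower, against 1.73% and 0.336% of all genes, and the median log2 difference was 0.10. The called gene was Cox18, which inserts part of the mitochondrially encoded subunit COX2 into the inner membrane. Cox18 had 3.81, 5.09 and 4.09 FPKM in the siNC cultures and 11.6, 12.96 and 8.24 FPKM in the siCNN3 cultures, with a log2 difference of 1.15 and a standard error of 0.199 (adjusted p = 0.0430, limma). Its call was lost when any single library other than siCNN3 replicate 3 was left out, and its adjusted p from limma reached 0.179 over all alternatives. Complex I, for which Ndufa4 is named, had 36 nuclear subunits tested. Of these, 0 were called by limma, 2 were higher and 2 lower at an unadjusted p below 0.05, against 9.94% and 6.14% of all genes, and the median was 0.06.

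**Figure D3:**
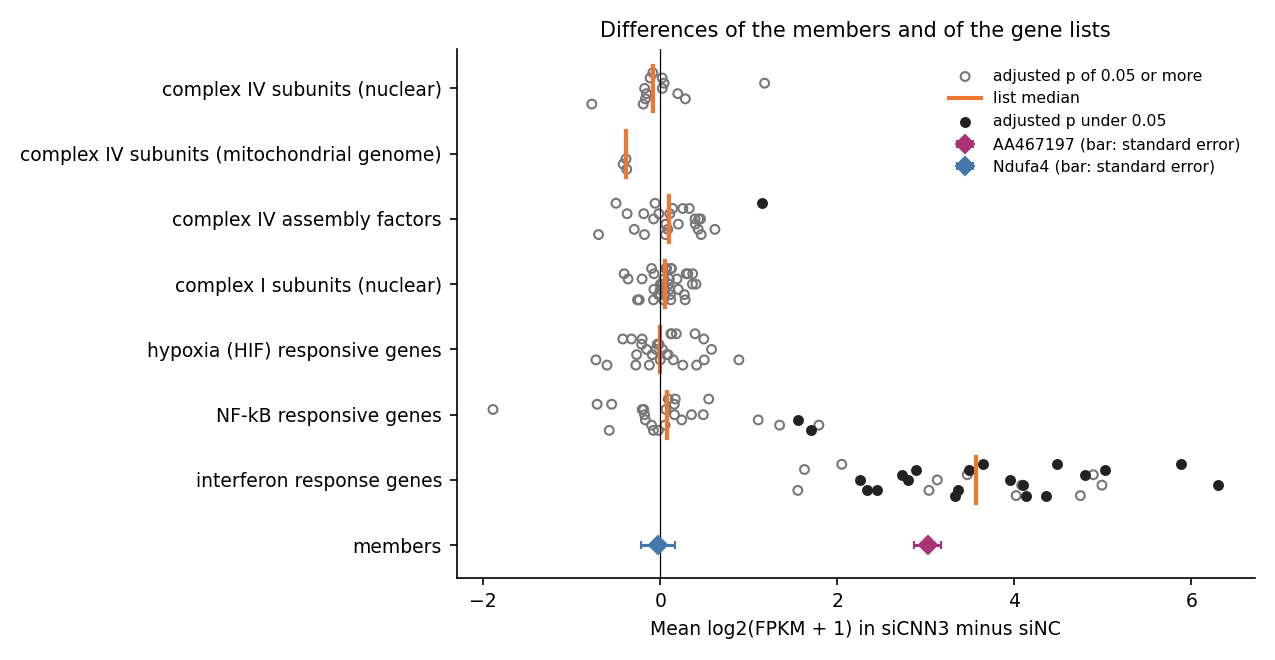
Difference of mean log2(FPKM + 1) between siCNN3 and siNC for each tested gene of 7 lists, with filled points for genes at an adjusted p below 0.05 (limma), an orange line at the list median and diamonds with standard errors for AA467197 and Ndufa4. Ndufa4 at -0.02 sits among the respiratory chain lists, whose medians lie between -0.39 and 0.10, and AA467197 at 3.02 sits within the range of the interferon response genes, whose median is 3.56.

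Lists that stand for known inducers of the paralogs, NF-kB and hypoxia responsive genes, were compared next, beside the interferon response. The interferon list was taken because that response was known to lead this contrast, so its counts are a description only. Of 30 interferon response genes, 19 were called higher and 0 lower, against 1.73% and 0.336% of all genes, and 4 of the 19 reached the minimum of 0.5 FPKM only through siCNN3. The 3 called genes with the largest differences were the chemokine Cxcl10 at 6.30, the antiviral Ifit3 at 5.88 and the RNA sensor Oas1a at 5.02 on the log2 scale. Ifit3 had an adjusted p of 0.0491 from limma and kept its call under 4 of 13 alternatives, while Cxcl10 and Oas1a each kept theirs under 9. The 30 genes summed to 118.9, 844.0 and 339.1 FPKM in the siNC cultures and to 6033, 5863 and 3426 FPKM in the siCNN3 cultures, in replicate order. Without those 4 genes, 15 were called with all libraries, 0 without siNC replicate 3 or without siCNN3 replicate 2, 1 without siCNN3 replicate 1 and 6 without siNC replicate 1. The highest siNC value of AA467197 was 1.43 times its lowest, and the interferon sum spanned 7.10-fold within siNC. This sets 1 gene beside a sum of 30, and the difference in spread was not tested.

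NF-kB responsive genes stand for the inflammatory stimuli that are known to induce AA467197. Of 26 tested, 2 were called higher and 0 lower, against 1.73% and 0.336% of all genes, with a median log2 difference of 0.08. At an unadjusted p below 0.05, 8 were higher and 1 lower, against 9.94% and 6.14% of all genes. The siCNN3 values were all above the siNC values for 8 and all below for 1, against 13.8% and 9.35%. The called genes were the cytokine Il6, with means of 8.81 ± 3.91 FPKM for siNC and 29.3 ± 2.30 FPKM for siCNN3 (SD, n = 3, adjusted p = 0.0333, limma), and the chemokine Ccl7, at 116.1 ± 44.6 and 333.1 ± 74.4 FPKM (SD, n = 3, adjusted p = 0.0492, limma). Neither call held when siNC replicate 3, siCNN3 replicate 1 or siCNN3 replicate 2 was left out, and over all alternatives the adjusted p from limma reached 0.140 for Il6 and 0.169 for Ccl7. The transcription factor Irf1 differed by 1.79 without passing (adjusted p = 0.0586, limma). Saa3, an acute phase protein, was at -1.89 with overlapping groups (adjusted p = 0.313, limma).

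Hypoxia responsive genes, the program of Ndufa4l2, did not separate the groups but did separate libraries in both. Of 30 tested, 0 were called by limma, 1 was higher and 1 lower at an unadjusted p below 0.05, against 9.94% and 6.14% of all genes, and the median was -0.01. They summed to 4792, 3195 and 4417 FPKM in the siNC cultures and to 3234, 3649 and 5653 FPKM in the siCNN3 cultures. The highest sum of each group was in siNC replicate 1 and siCNN3 replicate 3, the libraries with the lowest Ndufa4. In siNC replicate 1 the table also listed the most transcripts at 0, 2131 compared with 978 to 1333 in the other libraries. The part of these library differences in the Ndufa4 values was not tested.

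The profile of AA467197 over the 6 libraries was compared with that of every tested gene by the root mean square difference of log2(FPKM + 1), each gene centred on its own mean. The 5 nearest genes were Tap1, which carries peptides to MHC class I (0.304), the MHC class I gene H2-K1 (0.323), Chac1, a glutathione-degrading enzyme induced by amino acid stress (0.340), the chemokine Ccl4 (0.355) and the MHC class I gene H2-Q4 (0.356). Tap1 had means of 0.726 ± 0.204 FPKM for siNC and 13.7 ± 5.60 FPKM for siCNN3 (SD, n = 3 each). H2-K1 was at 41.6 ± 10.5 and 338.8 ± 59.5 FPKM (SD, n = 3), and reads of the near-identical MHC class I genes cannot be assigned with certainty. Chac1 was at 6.29 ± 1.79 and 48.8 ± 7.68 FPKM (SD, n = 3). Ccl4 was listed at 0.175, 0.381 and 0 FPKM in the siNC cultures and reached the minimum of 0.5 FPKM only through siCNN3. When profiles were divided by their own SD, 0 of these 5 were among the 5 nearest, and all 5 were among the 100 nearest. These distances rest on 6 libraries and the same contrast that AA467197 was selected for, and carry no test.

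**Figure D4:**
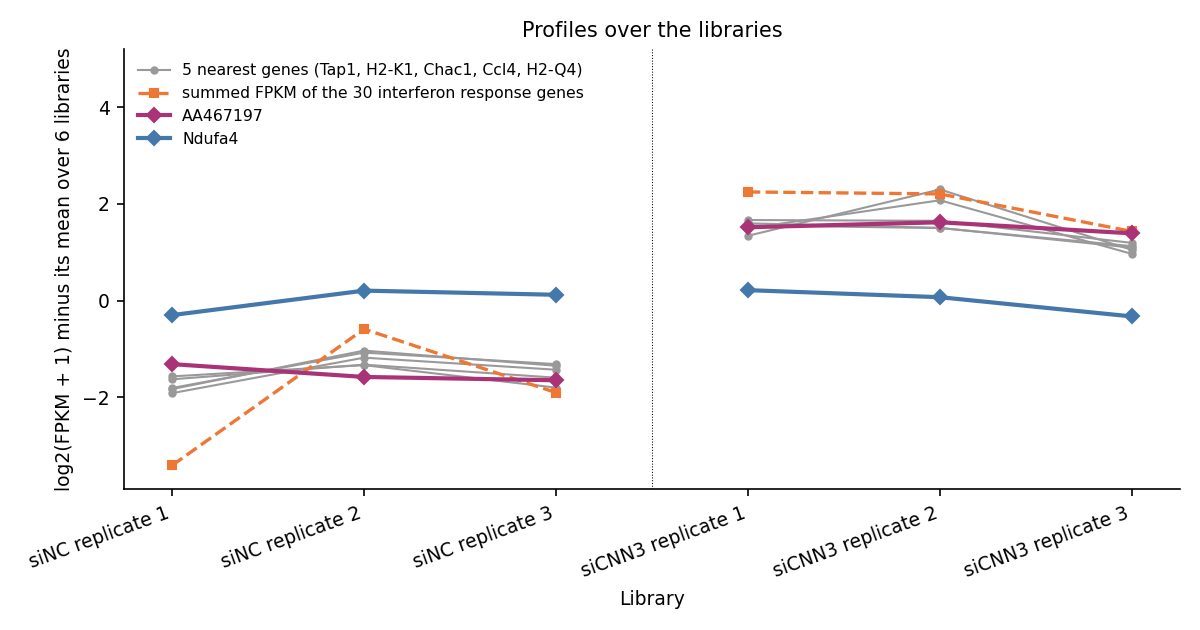
Values of log2(FPKM + 1) less their mean over the 6 libraries (y axis) by library (x axis) for AA467197, Ndufa4, the 5 genes nearest to AA467197 and the summed interferon response genes. AA467197 and its nearest genes step up together between the groups, Ndufa4 stays near 0, and the interferon sum varies more within siNC (7.10-fold) than AA467197 does (1.43-fold).

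Genes around the members were looked at to see whether the difference at AA467197 extended along the chromosome. Of genes within 100 kb of AA467197, 3 were listed. Gatm, 25683 bases away and the first enzyme of creatine synthesis, had a log2 difference of 0.20 (adjusted p = 0.442, limma), with all siCNN3 values above the siNC values, as for 13.8% of all genes. Slc30a4, a zinc transporter, was at 0.12 (adjusted p = 0.658, limma), and Bloc1s6, a subunit of a complex of lysosome-related organelles, was at 0.38 (adjusted p = 0.639, limma). Phf14, 312 bases from Ndufa4, was at -0.00 (adjusted p = 0.995, limma). None of the 4 was called under any of the 13 alternatives on gene sums.

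The targeted gene Cnn3 had means of 62.3 ± 0.840 FPKM for siNC and 27.9 ± 10.3 FPKM for siCNN3 (SD, n = 3 each), lower in every siCNN3 library, without passing the threshold (adjusted p = 0.0669, limma). It was called without siCNN3 replicate 2 (adjusted p = 0.0477, limma) and under none of the other 12 alternatives on gene sums. Muscle markers were present, with desmin at 117.2 ± 6.89 FPKM (SD, n = 3) in siNC, and 0 of the 10 tested were called higher and 5 lower, against 1.73% and 0.336% of all genes. The 5 were the contractile genes Acta1, Mylpf, Tnnc2, Tnnt3 and Myh3, of which Tnnc2 and Myh3 reached 0.5 FPKM only through siNC. Of the 7 tested markers whose mean reached 0.5 FPKM in both groups, Acta1, Mylpf and Tnnt3 were called lower and 0 higher. The listed markers summed to between 187.6 and 224.8 FPKM in siNC and between 115.1 and 131.5 FPKM in siCNN3. AA467197 is known from macrophages and epithelia, so markers of these were checked. Of 12 macrophage and leukocyte markers 3 were listed (Cd14, Cd68 and Lyz2), summing to between 20.1 and 27.1 FPKM in siNC and between 16.3 and 19.2 FPKM in siCNN3, and the other 9, Ptprc and Adgre1 among them, were not analysed here. Epithelial markers, of which 3 of 8 were listed, summed to between 2.94 and 13.4 FPKM in siNC and between 2.88 and 10.1 FPKM in siCNN3. Of 8 endothelial markers only Tek was listed, at 0.681 to 1.37 FPKM in siNC and 0.733 to 1.24 FPKM in siCNN3. No sum of these few listed markers was higher in siCNN3 beyond the range in siNC. Most markers of each other cell type were not analysed here, so the presence of such cells was not tested.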

How the data were processed

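The authors sequenced mRNA of 3 siNC and 3 siCNN3 cultures and deposited FPKM for 24023 Ensembl transcripts, 1 column per library. The submitters' processing notes name Bowtie 0.12.2 and the builds mm8 and mm10 without their roles, and the program that made the FPKM is not given in the sources used here. Read numbers are not given, so the depth is unknown and no counting error was computed. Transcript identifiers, less their version, were looked up in GENCODE for GRCm38 (23949 found, 74 left out) and FPKM were summed by gene symbol for 11835 genes.

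For the 11593 genes whose mean reached 0.5 FPKM, log2(FPKM + 1) was fitted in limma 3.58.1 (R 4.3.3) with its moderated test, a mean-variance trend and p-values adjusted by Benjamini-Hochberg (0.05 as the threshold), which was tested on simulated data. With 3 libraries against 3, the smallest two-sided exact permutation p is 0.1, and p-values measure the spread between these libraries only. The members and lists were chosen with earlier results of these data known. The members' differences carry no p, and lists are described by counts and medians. Named genes are the members, Cnn3, the 5 nearest profiles, listed neighbours within 100 kb, the called members of a list (or the 3 with the largest change where more than 3 are called), up to 3 further members by size of difference and the complex IV isoform pairs. Some genes within these rules are not printed. The called muscle markers beyond 3 were named after their values were seen.

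Sequences, alignments and motif searches used Biopython 1.88 in Python 3.11.15, with promoters and miRNAs from RefSeq tables of GRCm38.p6, and siRNA sequences from the study's supplement. The search for hairpin stretches replaced that for the seed of miR-147-3p and was chosen after the data were seen. Alternatives were a pseudocount of 0.1, quantile normalization or median-of-ratios scaling, a minimum mean of 5 FPKM or none, a block for the replicate number, no trend, each transcript on its own and each library left out. There were 0 columns of other samples.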

Additional observations from a re-analysis of the deposited data

How the results depend on the processing

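The log2 difference of AA467197 was 3.54 with a pseudocount of 0.1 and 2.96 to 3.12 when single libraries were left out, and under the other settings it moved by less than the spread between replicates. That of Ndufa4 ran from -0.18 to 0.13 when single libraries were left out and was -0.16 after quantile normalization, within its spread. The 239 called genes became 68 with the replicate block and 20 to 602 when single libraries were left out, and with each transcript on its own 117 of 21658 transcripts were called. The fewest were left without siNC replicate 3 (20), siCNN3 replicate 2 (32), siCNN3 replicate 1 (46) and siNC replicate 1 (99), and the most without siCNN3 replicate 3 (602). Of the called genes 83.7% were higher, compared with 68.2% after quantile normalization and 71.7% and 73.6% without siNC replicate 1 or siCNN3 replicate 3. Nuclear complex IV subunits called ranged from 0 to 1 when single libraries were left out, the 1 being Cox6a2, which passed the filter only through its siCNN3 values. Assembly factors called were 0 with the replicate block and 0 to 1 when single libraries were left out, and the count of complex I subunits called was 1 after quantile normalization. NF-kB responsive genes called were 1 with a pseudocount of 0.1, with no filter, after median-of-ratios scaling and without a trend, 0 after quantile normalization and with the replicate block, and 0 to 4 when single libraries were left out. Interferon response genes called were 9 with the replicate block and 1 to 23 when single libraries were left out, with 1 without siNC replicate 3, 2 without siCNN3 replicate 2, 3 without siCNN3 replicate 1 and 8 without siNC replicate 1. Of these, 1, 2, 2 and 2 were Oas2 or Oas3, which passed the filter only through siCNN3. The cause of these shifts was not tested. Same-numbered siNC and siCNN3 libraries had correlations of -0.28, 0.31 and -0.02 between their deviations from the group means, and not every library correlated best with its own number, so the numbers were not taken as pairs. The seed match of miR-147-3p and the differences of Ndufa4l2 were not run. The unknown depth limits the transcript shares of AA467197 in siNC, where the levels are lowest.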
